A study of Equus caballus with 26 samples.

Results

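Succinate metabolism was followed through 10 listed genes, 4 of them for the subunits of succinate dehydrogenase (*SDHA*, *SDHB*, *SDHC* and *SDHD*), 3 for the subunits of succinyl-CoA ligase (*SUCLG1*, *SUCLG2* and *SUCLA2*), and *OGDH*, *FH* and *SUCNR1*. The genes were listed by their function and looked up on the array by gene name, description and the study's annotation. The array carried 24415 gene names, and a probe was found for 8 of the 10 genes. No probe named for *SDHD* or *OGDH* was found here, so that the membrane anchor encoded by *SDHD* and the first component of the 2-oxoglutarate dehydrogenase complex were not analysed. The probes of *SUCNR1* lay near background, which left 7 genes for the tests, each well above background on all 26 arrays.

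In the mitochondrial matrix, succinyl-CoA made by the 2-oxoglutarate dehydrogenase complex is turned into succinate by succinyl-CoA ligase, a pair of an alpha subunit (SUCLG1) with a beta subunit that fixes whether GTP (SUCLG2) or ATP (SUCLA2) is formed. Succinate dehydrogenase, which is also complex II of the respiratory chain, oxidises succinate to fumarate, and fumarase (FH) hydrates fumarate to malate. Succinate that leaves the cell can be sensed by the receptor SUCNR1, and in myeloid cells succinate and its near relative itaconate are known as signals in inflammation.

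Whole-blood mRNA of Arabian or half-breed Arabian horses was measured before (T0) and immediately after (T1) an endurance competition of 160 km. Of the experimental set, the arrays analysed here held 3 geldings sampled at both times, and of the validation set they held 7 horses sampled at T0 alone (4 geldings and 3 females) and 13 other horses sampled at T1 alone (10 geldings and 3 females). The blood had been drawn into PAXgene tubes, which lyse and fix all blood cells together, and every horse was a competitor with no untrained or resting group beside it. Per the study's text, horses of the validation set sampled at T1 had all finished, whereas many of those sampled at T0 were later eliminated. Both sets were larger in the study than here, and the outcome of single horses was not used, so that outcome and time were not separated. The study's text also states that its horses came from 3 French competitions. The competition of single horses was not used here, so that in the validation set competition and time were not separated either.

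A level is given here as the log2 signal of a gene's brightest probe minus the 75th percentile of its array, so that a difference of 1 between groups is a factor of 2, and levels of different probes are not set against each other. The share of probes well above background lay between 60.2% and 75.3% per array. Of the 20 validation arrays, 16 were scanned on 5 days that held both times, and the other 4, all from T1, on 2 days with no T0 array of that set. The array of validation horse 34 had been scanned in 1 pass and not 2, and validation horse 47 stood apart at T0, with the highest level of the neutrophil markers and the lowest level of *SUCLG1*, *SUCLG2*, *SUCLA2* and *FH* among the 7 horses. The comparisons of T1 with T0 in the validation set were therefore also computed without these 2 horses. Differences between genes on an array, and between the sets, were computed without each of them in turn.

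Among the 7 genes, *SUCLG2* and *FH* were under-expressed at T1. In the validation set *SUCLG2* fell to 68.1% of its T0 level (95% interval from 54.7% to 84.8%) and *FH* to 70.1% (58% to 84.6%), and both were lower at T1 in each of the 3 experimental horses. The partners of *SUCLG2* in the ligase, *SUCLG1* and *SUCLA2*, did not pass the test in either set. *SDHA*, *SDHB* and *SDHC* did not pass it either, and in the validation set the spread of each between horses (SD from 0.58 to 1.04) was wider than that of the other 4 genes (SD from 0.19 to 0.40). With limma and Benjamini-Hochberg adjustment over all gene names, 2 of 7 genes passed an adjusted p of 0.05 in the validation set, both lower at T1, where 44.2% of the 17405 gene names tested passed in either direction, 23.9% as lower and 20.3% as higher. In the experimental set 0 of 7 passed (1, *SUCLG2*, at an unadjusted p under 0.05), where 10.1% of 17490 gene names passed, 3.95% as lower and 6.16% as higher. That share hung on single horses, with 239, 690 and 3169 gene names passing without horse 2, 32 or 41 in place of 1768. The median log2 fold change of the 7 genes was -0.32 in the validation set and -0.34 in the experimental set, and over all gene names it was -0.07 and 0.03.

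**Figure D1:**
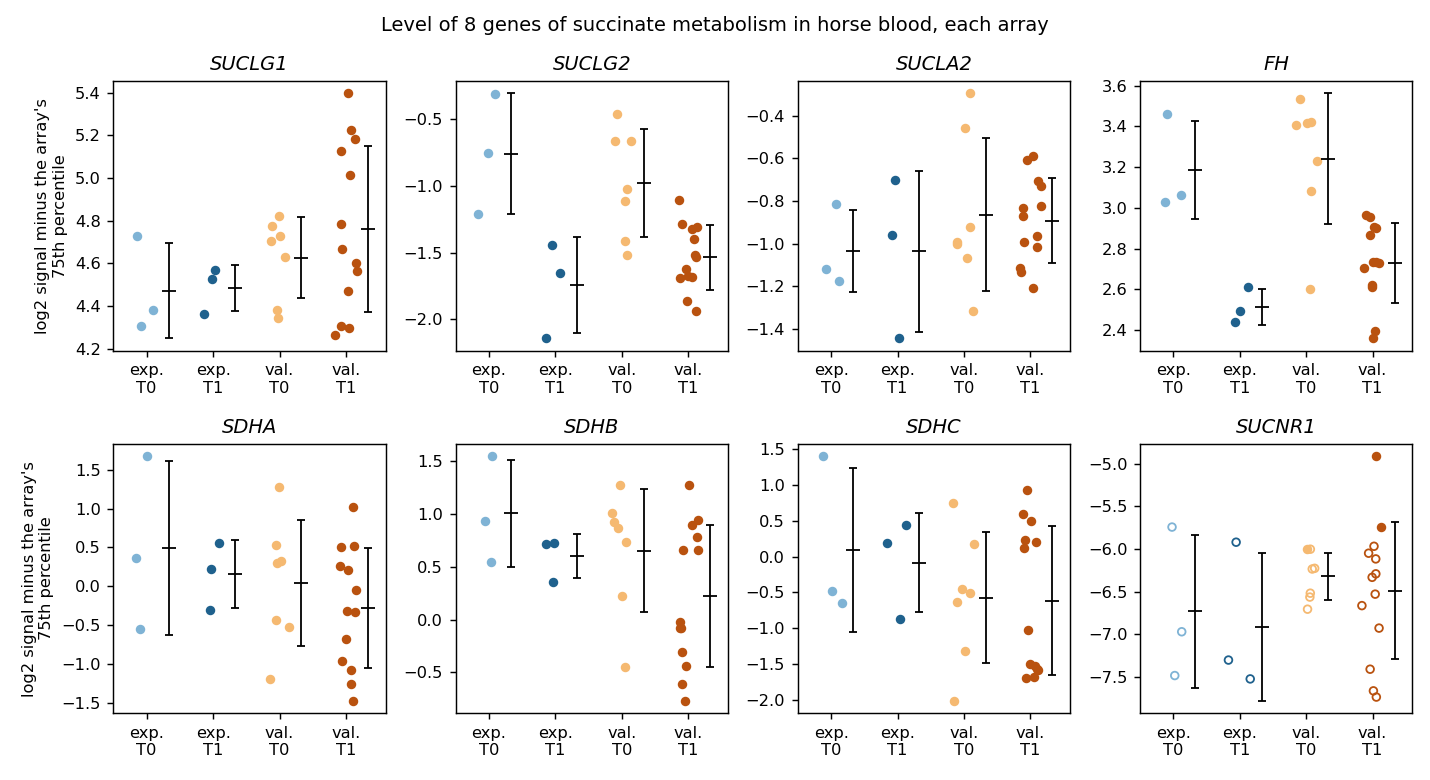
Level of each of the 8 genes (log2 signal minus the 75th percentile of the array, vertical axis) on every array by set and time. Filled points were well above background, open points were not, and the bars at the side of each group give the mean and SD. *FH* and *SUCLG2* sit lower at T1 in both sets, the SDH subunits spread over more than 2 log2 units in the validation groups (except *SDHB* at T0, with 1.73), and *SUCNR1* is mostly open points.

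*SUCLG2* encodes the beta subunit of the GTP-forming ligase. In the experimental set its level went from -0.75 to -1.65 in horse 2, from -0.31 to -1.44 in horse 32 and from -1.21 to -2.14 in horse 41. All 3 horses were lower after the ride, by 0.90 to 1.13, and the highest T1 level lay below the lowest T0 level. The fitted log2 fold change was -0.99 ± 0.31 (SE, n = 3 horses), about 1.98-fold lower, and limma's adjusted p was 0.0748. Its validation levels ranged from -1.52 to -0.46 at T0 (median -1.02, n = 7) and from -1.94 to -1.10 at T1 (median -1.54, n = 13). All 13 T1 horses lay below the T0 median and 7 lay below the lowest T0 horse, while 4 of 7 T0 horses lay above every T1 horse. This gave a log2 fold change of -0.55 ± 0.15 (SE), 1.47-fold lower, with an adjusted p of 0.00558 (limma). On the 5 scan days that held both times the difference was below 0 on all 5, between -0.94 and -0.35. Without horses 47 and 34 it was -0.68 (limma, adjusted p = 0.000835), and after normexp correction and quantile normalization it shrank to -0.36 (limma, adjusted p = 0.00853).

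*SUCLG1* encodes the alpha subunit that both forms of the ligase share, and it did not pass the test in either set. In the experimental horses it went from 4.73 to 4.57, from 4.31 to 4.36 and from 4.38 to 4.53 in horses 2, 32 and 41, with differences from -0.16 to 0.15. The validation horses ranged from 4.35 to 4.82 at T0 (median 4.71) and from 4.26 to 5.40 at T1 (median 4.67). The groups overlapped, but the T1 horses were spread more widely, with 3 below the lowest and 5 above the highest T0 horse. Of these 5, the highest 3 (horses 4, 55 and 62) were scanned on 1 day that held no T0 array. The log2 fold change of 0.13 in the validation set had a 95% interval from -0.21 to 0.47, and its sign turned to -0.15 with quantile normalization, under which the experimental value turned from 0.01 to -0.37, so that no direction is given for it.

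*SUCLA2* encodes the beta subunit of the ATP-forming ligase. Its experimental levels went from -0.82 to -0.96, from -1.12 to -1.44 and from -1.17 to -0.70 in horses 2, 32 and 41. It ranged from -1.32 to -0.30 at T0 (median -0.99) and from -1.21 to -0.59 at T1 (median -0.87) in the validation set, where the T1 horses lay wholly within the range of T0. The log2 fold change was -0.03 (limma, adjusted p = 0.888), with an interval from -0.31 to 0.26, that is between 80.5% and 119.5% of the T0 level.

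**Figure D2:**
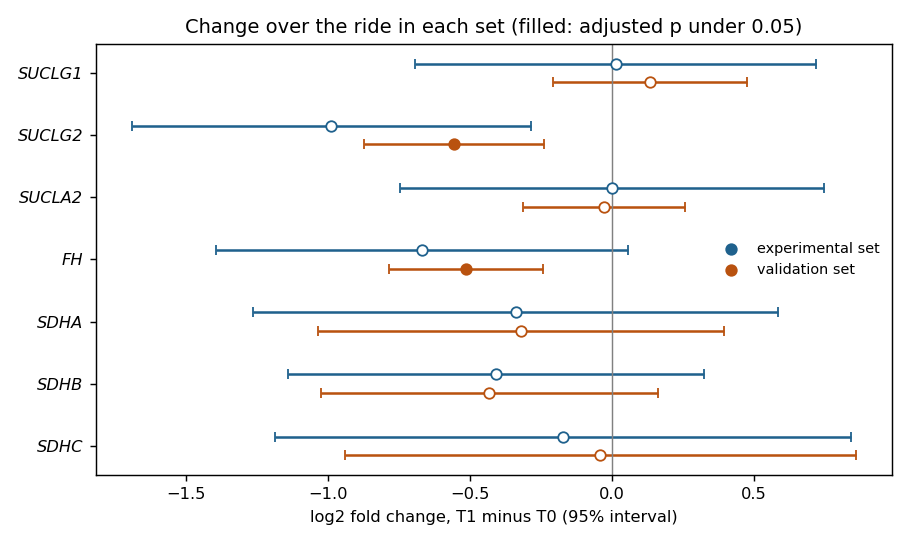
Log2 fold change from T0 to T1 (horizontal axis) with its 95% interval for 7 genes in the experimental set (blue, 3 horses) and the validation set (orange, 7 and 13 horses). Filled points passed an adjusted p of 0.05 in limma, which were *SUCLG2* and *FH* in the validation set, and the widest intervals are those of *SDHA* and *SDHC*.

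Because members of one enzyme were read on the same array, the difference between their log2 signals was also compared between the times, over 6 pairs, with a two-sided exact permutation test that enumerated 77520 ways to split the 20 validation horses and Benjamini-Hochberg adjustment over the 6 pairs. *SUCLG1* minus *SUCLG2* was 5.61 ± 0.44 at T0 (SD, n = 7) and 6.30 ± 0.51 at T1 (SD, n = 13), so that the distance between the alpha subunit and the GTP-type beta subunit widened by 0.69 (exact permutation, adjusted p = 0.0495). *SUCLG2* minus *SUCLA2* moved from -0.12 ± 0.57 to -0.64 ± 0.34 (SD), by -0.53 (exact permutation, adjusted p = 0.0571). *SUCLG1* minus *SUCLA2* moved by 0.16, which did not pass (exact permutation, adjusted p = 0.379). The first call rested on a narrow margin. It was lost on the arrays of the 5 scan days with both times, a choice made after seeing the data (0.57, n = 7 and 9, exact permutation, adjusted p = 0.106), without horse 47 (0.73, exact permutation, adjusted p = 0.0551) and after normexp correction with quantile normalization (0.20, exact permutation, adjusted p = 0.307), and without horse 34 both *SUCLG2* pairs passed, with an adjusted p of 0.0308 and 0.0396 (exact permutation).

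**Figure D3:**
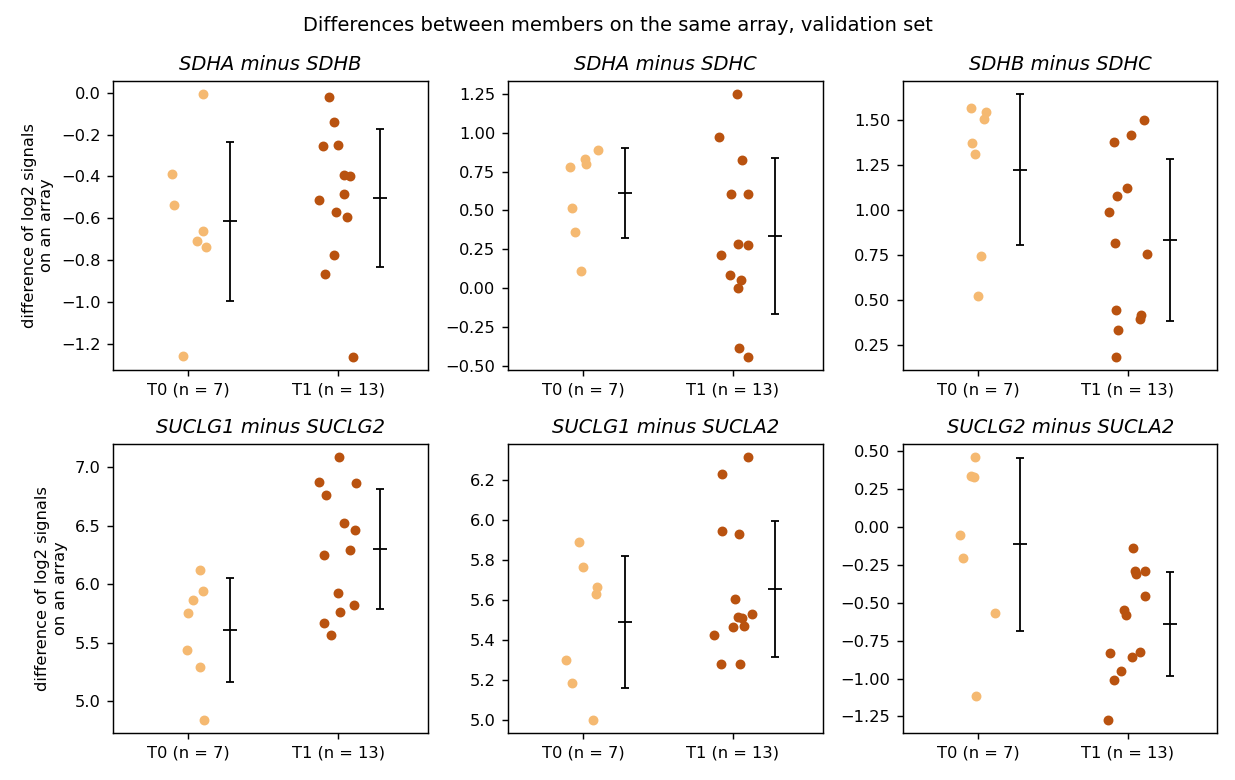
Difference between the log2 signals of 2 members on the same array (vertical axis) in the validation horses at T0 and T1, with mean and SD at the side. The T1 horses sit higher for *SUCLG1* minus *SUCLG2* (5.57 to 7.09, against 4.84 to 6.12 at T0), and the times overlap in all 6 panels.

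Succinate dehydrogenase was represented by its flavoprotein *SDHA*, which holds the succinate site, its iron-sulfur subunit *SDHB*, and *SDHC*, a membrane anchor.

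*SDHA* went from 0.36 to 0.56 in experimental horse 2, from 1.68 to 0.22 in horse 32 and from -0.55 to -0.31 in horse 41, so that only horse 32 was lower after the ride. Across the validation horses it ranged from -1.19 to 1.27 at T0 (median 0.30) and from -1.48 to 1.02 at T1 (median -0.32), and the groups overlapped over nearly their whole range. The log2 fold change was -0.32 ± 0.34 (SE) in the validation set and -0.34 ± 0.41 in the experimental set, with adjusted p of 0.481 and 0.612 (limma). With scan day as a further term the validation value was -0.82 ± 0.37 and on the days with both times alone -0.60 ± 0.35 (SE), and neither passed (limma, adjusted p = 0.0821 and 0.169).

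*SDHB* was lower at T1 in all 3 experimental horses, from 0.93 to 0.71 in horse 2, from 1.55 to 0.73 in horse 32 and from 0.54 to 0.36 in horse 41. In the validation set it ranged from -0.45 to 1.28 at T0 (median 0.86) and from -0.77 to 1.27 at T1 (median -0.03). Of 13 T1 horses, 10 lay below the T0 median and 2 below the lowest T0 horse, but the groups overlapped. Its log2 fold change of -0.43 ± 0.29 (SE) did not pass the test (limma, adjusted p = 0.233). With scan day as a further term it was -0.89 ± 0.28 and passed (limma, adjusted p = 0.0188). On the arrays of the 5 days that held both times alone, a choice made after seeing the data, it was -0.77 ± 0.26 and passed as well (limma, adjusted p = 0.0222). With the slide as a random block it was -0.54 ± 0.27 and did not pass (limma, adjusted p = 0.108). The day by day differences were -1.89, -0.81, -0.92, 0.63 and -1.71.

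*SDHC* had 4 probes, and the brightest went from -0.65 to 0.44, from 1.41 to 0.19 and from -0.49 to -0.87 in experimental horses 2, 32 and 41. Its validation levels lay from -2.02 to 0.75 at T0 (median -0.50) and from -1.69 to 0.94 at T1 (median -1.02). The T1 horses fell to either side of a gap of 1.14, with 7 horses between -1.69 and -1.02 and 6 between 0.13 and 0.94. The 6 above it were horses 17 and 34 and the 4 horses (4, 24, 55 and 62) scanned on the 2 days without a validation T0 array. The log2 fold change was -0.04 ± 0.43 (SE), and the interval from -0.94 to 0.86 allows anything from 52.1% to 181.6% of the T0 level. With scan day as a further term it was -0.72 ± 0.42 and on the days with both times alone -0.55 ± 0.39 (SE), and neither passed (limma, adjusted p = 0.185 and 0.259). The other 3 probes gave -0.13, -0.13 and -0.08 in the validation set, and in the experimental set 1 of them gave 0.49 where the brightest gave -0.17, with none passing the test.

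The validation T1 arrays scanned on the 2 days without a validation T0 array were higher for all 3 subunits. *SDHB* was 0.97 ± 0.21 on these 4 arrays and -0.11 ± 0.50 on the other 9 T1 arrays (SD), *SDHC* was 0.54 ± 0.33 and -1.12 ± 0.79, and *SDHA* was 0.35 ± 0.56 and -0.56 ± 0.70. For *SUCLG2* and *FH* the same 2 groups of arrays lay close together, at -1.55 ± 0.18 and -1.53 ± 0.28 and at 2.65 ± 0.20 and 2.76 ± 0.20 (SD), as they did for *SUCLA2*, at -0.92 ± 0.19 and -0.88 ± 0.21. *SUCLG1* was 5.02 ± 0.51 on the 4 arrays and 4.65 ± 0.29 on the other 9 (SD). The 4 arrays also come from 4 different horses, and horse and scan day cannot be told apart there. One of the 2 days also held 2 experimental arrays, horse 32 at T0 and horse 2 at T1. The array of horse 32 had the highest *SDHA*, *SDHB* and *SDHC* of all 26 (1.68, 1.55 and 1.41). Since the 2 arrays of each experimental horse were scanned on different days, time and scan day cannot be told apart within a horse, and for *SDHA* and *SDHC* the array from that day was the higher one in both horses, at T0 in horse 32 and at T1 in horse 2.

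The 3 SDH subunits varied in parallel. Over the 20 validation horses, with each value taken as the deviation from the mean of its time, *SDHA* and *SDHB* correlated with r of 0.90 and rho of 0.89, *SDHA* and *SDHC* with r of 0.90 and rho of 0.93, and *SDHB* and *SDHC* with r of 0.95 and rho of 0.93. Each had a permutation p of 1e-05, the smallest that 100000 permutations can give, and an adjusted p of 7e-05 over 21 pairs of the 7 genes. Without the 2 horses farthest from the median r was 0.86, 0.88 and 0.95, and with scan day and time both taken out it was 0.73, 0.85 and 0.93. The latter values rest on the 13 horses that shared scan day and time with another horse. On either side of the gap in *SDHC* at T1, the 3 pairs gave r of 0.88, 0.75 and 0.49 over the 7 horses below it and 0.43, 0.77 and 0.72 over the 6 above it. These values are a description, since the horses were split by *SDHC* itself after its levels were seen, which narrows its range. The 6 horses above the gap also include all 4 T1 horses scanned on the 2 days without a validation T0 array. Of the other 18 pairs, 1 passed after adjustment, *SDHB* and *SUCLA2* with r of -0.56 (permutation, adjusted p = 0.0444), but with rho of -0.48 it did not (permutation, adjusted p = 0.098), and r was -0.40 without the 2 farthest horses. The differences between SDH subunits on an array moved by 0.11, -0.28 and -0.39 from T0 to T1 for *SDHA* minus *SDHB*, *SDHA* minus *SDHC* and *SDHB* minus *SDHC*, and none passed (exact permutation, adjusted p from 0.15 to 0.502).

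**Figure D4:**
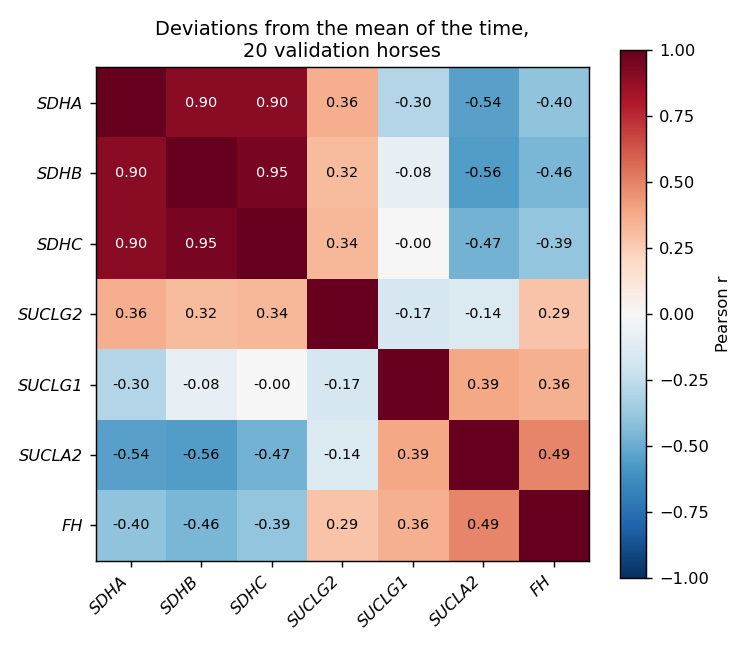
Pearson r between the deviations of 7 genes from the mean of their time over the 20 validation horses, from -1 (blue) to 1 (red). The block of *SDHA*, *SDHB* and *SDHC* has r from 0.90 to 0.95, and *SUCLA2* and *FH* lie below 0 against all 3.

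This parallel variation was shared by many genes outside succinate metabolism. Over all 26 arrays and 15609 gene names, deviations from the mean of set and time followed those of *SDHA* with r above 0.8 for 1101 gene names, those of *SDHB* for 773 and those of *SDHC* for 617. The same count was 29 for *SUCLG1*, 30 for *SUCLA2*, 21 for *FH* and 0 for *SUCLG2*. The leading axis of variation within groups, which took up 26.2% of the variance of all gene names compared, correlated with r of 0.97 with *SDHA*, 0.89 with *SDHB* and 0.88 with *SDHC*, and between -0.48 and 0.41 with the other 4 genes. These correlations are a description over arrays that share scan days and slides, and no test was made of what lies behind the axis. The genes closest to *SDHA* were *NONO*, *EIF3C* and *CNDP2* (r from 0.97 to 0.98), those closest to *SDHB* were *C15orf57*, *RNF5* and *LAMTOR1* (0.95 to 0.97), and those closest to *SDHC* were *CHMP4A*, *TMED10* and *LSM2* (0.96 to 0.97).

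For the other genes the nearest patterns were looser. *SUCLG1* was closest to *PSMC1* (r = 0.89), *ATP5H*, which encodes a subunit of the ATP synthase, (r = 0.89) and *SSR3* (r = 0.87). *SUCLA2* was closest to *FASTKD5*, *ERLEC1* and *PMS1* (r from 0.86 to 0.89), and *FH* to *PIGT*, *XPNPEP1* and *NARS1* (r from 0.83 to 0.86). *SUCLG2* was closest to *PRRC1* (r = 0.75), to *CS*, the citrate synthase that opens the cycle, (r = 0.73) and to *GAMT* (r = 0.72).

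*FH* encodes fumarase, the next step of the cycle after succinate dehydrogenase. It went from 3.46 to 2.44 in experimental horse 2, from 3.06 to 2.49 in horse 32 and from 3.03 to 2.61 in horse 41. All 3 fell by between 0.42 and 1.02, and no T1 level reached the lowest T0 level. The fitted change of -0.67 ± 0.32 (SE) did not pass the test (limma, adjusted p = 0.197). Among the validation horses *FH* ranged from 2.60 to 3.53 at T0 (median 3.41) and from 2.36 to 2.96 at T1 (median 2.73). Of the 7 T0 horses, 6 lay above every T1 horse, and the one that did not was horse 47. The fitted change was -0.51 ± 0.13 (SE), 1.43-fold lower at T1 (limma, adjusted p = 0.00327). The difference was below 0 on all 5 scan days with both times, between -0.78 and -0.11, and without horses 47 and 34 it was -0.62 (limma, adjusted p = 0.000349).

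*SUCNR1*, the succinate receptor, had 2 probes near background. The probe with the higher mean over all 26 arrays was not well above background on any experimental array (0 of 3 at each time), and in the validation set it was so for 1 of 7 horses before and 2 of 13 horses after the ride. The other probe was well above background on 2 of 6 experimental and 3 of 20 validation arrays. With so few arrays above background, no fold change or test is given for the receptor.

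No difference between the experimental and validation sets was detected in the change of the 7 genes. The change in the validation set minus that in the experimental set was 0.43 ± 0.33 for *SUCLG2* and 0.16 ± 0.26 for *FH* (SE), and between -0.03 and 0.13 for the other 5 genes. No gene name passed this test (limma, 0 of 17889, that is 0%, with 99, or 0.553%, at an unadjusted p under 0.05, where a test with no change anywhere gives 5% on average), and 0 of 7 genes had an unadjusted p under 0.05. What lies behind this low share was not tested, and the lack of calls does not show that the sets changed alike. The intervals were wide, from -0.25 to 1.11 for *SUCLG2* and from -0.37 to 0.68 for *FH*.

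The other enzymes of the cycle and of its entry were read from a list of 16, all of them tested. In the validation set 7 of 16 fell, 1 rose and 8 did not pass, and in the experimental set 0 fell, 1 rose and 15 did not pass. Over all gene names 23.9% fell and 20.3% rose in the validation set, and 3.95% fell and 6.16% rose in the experimental set. The list's median log2 fold change was -0.35 in the validation set and -0.48 in the experimental set. The isocitrate dehydrogenase genes *IDH3G* (-0.76 ± 0.15), *IDH2* (-0.71 ± 0.20) and *IDH3A* (-0.55 ± 0.13) fell in the validation set (SE; limma, adjusted p of 0.000562, 0.00656 and 0.00157). So did the pyruvate dehydrogenase subunits *PDHA1* (-0.62 ± 0.17) and *PDHB* (-0.38 ± 0.12), the cytosolic malate dehydrogenase *MDH1* (-0.51 ± 0.15) and the cytosolic aconitase *ACO1* (-0.67 ± 0.25), with adjusted p from 0.00627 to 0.0345 (limma). *PC*, which encodes the pyruvate carboxylase that refills oxaloacetate, was the exception and rose in both sets, by 2.44 ± 0.37 in the validation set and 2.88 in the experimental set (limma, adjusted p = 4.3e-05 and 0.00709). *SUCLG2* and *FH* thus sat in the same range as the 7 enzymes that fell.

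**Figure D5:**
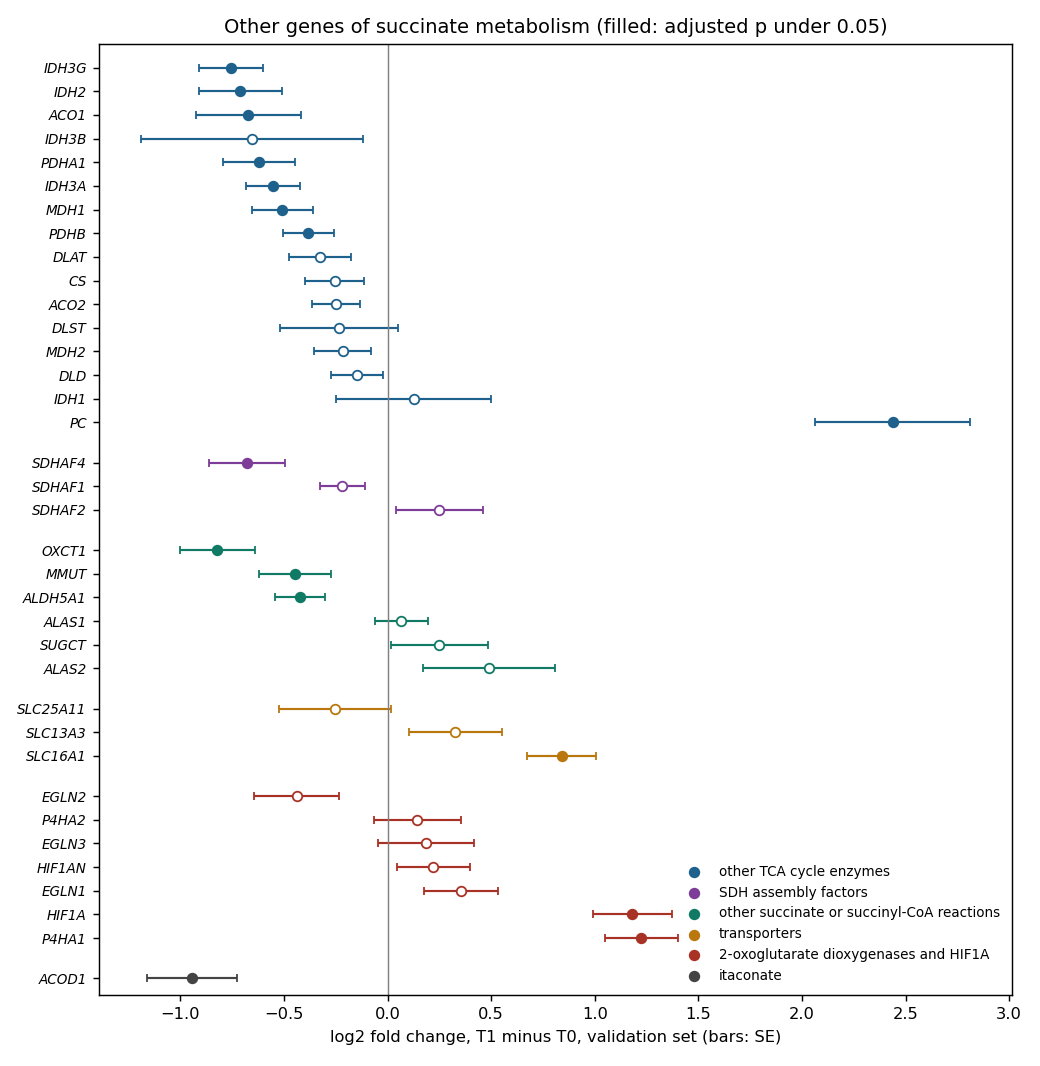
Log2 fold change from T0 to T1 in the validation set (horizontal axis, bars are SE) for the tested genes of 6 lists around succinate metabolism, with filled points past an adjusted p of 0.05 in limma. Most cycle enzymes lie left of 0, *PC* lies alone at 2.44, and *P4HA1* and *HIF1A* lie near 1.2.

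Of 4 assembly factors of succinate dehydrogenase, 3 had a probe. *SDHAF4*, which helps to join SDHA to SDHB, fell by 0.68 ± 0.18 on the log2 scale in the validation set (SE; limma, adjusted p = 0.00501), *SDHAF1* gave -0.22 ± 0.11 and *SDHAF2* gave 0.25 ± 0.21, and neither passed. Among 8 genes of other reactions that make or use succinate or succinyl-CoA, 6 were tested, and 3 fell in the validation set, where 23.9% of all gene names fell. They were *OXCT1* (-0.82 ± 0.18), which moves CoA from succinyl-CoA to acetoacetate when ketone bodies are burnt, *MMUT* (-0.45 ± 0.17), which makes succinyl-CoA from methylmalonyl-CoA, and *ALDH5A1* (-0.42 ± 0.12), which makes succinate from its semialdehyde (SE; limma, adjusted p of 0.000994, 0.0424 and 0.00747). *ALAS2*, which uses succinyl-CoA for haem in erythroid cells, gave 0.49 ± 0.32 and did not pass. None of the 9 genes tested in these 2 lists passed in the experimental set (limma), where 10.1% of all gene names did. There *OXCT1* gave -0.69 and *SDHAF4* -0.51.

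Of 5 transporters, 3 were tested, and the monocarboxylate carrier *SLC16A1* rose by 0.84 ± 0.17 in the validation set (SE; limma, adjusted p = 0.000467), while *SLC13A3* gave 0.33 and *SLC25A11* -0.25, without passing. A list of 7 genes held dioxygenases that turn 2-oxoglutarate into succinate, namely the oxygen sensors that act on HIF1A and collagen prolyl hydroxylases, together with *HIF1A* itself. In the validation set 2 of 7 rose, a share near the 20.3% of all gene names that did. The collagen prolyl hydroxylase *P4HA1* rose by 1.23 ± 0.18 and *HIF1A* by 1.18 ± 0.19 (SE; limma, adjusted p = 2.5e-05 and 6.6e-05), and *P4HA1* also rose in the experimental set, by 1.26 (limma, adjusted p = 0.0386), where *HIF1A* gave 1.22 (limma, adjusted p = 0.0546). *EGLN2* gave -0.44 and *EGLN1* 0.35 in the validation set and did not pass. *ACOD1*, which makes itaconate, an inhibitor of succinate dehydrogenase, fell by 0.94 ± 0.22 in the validation set (SE; limma, adjusted p = 0.0014) and gave -0.90 in the experimental set (limma, adjusted p = 0.0962).

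Marker mRNAs of several blood cell types moved with time as well. The counts below stand beside shares over all gene names of 23.9% lower and 20.3% higher in the validation set. In the experimental set these shares were 3.95% lower and 6.16% higher. No cell counts were analysed here, and in whole blood fewer cells of a type and less mRNA per cell cannot be told apart. All 8 T cell markers (*CD3D*, *CD3E*, *CD3G*, *CD4*, *CD8A*, *CD27*, *LCK* and *TCF7*) fell in the validation set, with log2 fold changes from -1.71 to -0.91, and 6 of 8 in the experimental set. The mean level of the list went from a range of -0.16 to 1.24 at T0 to one of -1.19 to 0.00 at T1 in the validation set. Of 8 neutrophil markers 6 rose in the validation set (among them *S100A8*, *S100A9*, *S100A12*, *CXCR2* and *CSF3R*, by 0.76 to 3.09) and 4 in the experimental set, and the mean level of the 7 markers scored went from 3.79 to 5.60 at T0 to 5.36 to 6.48 at T1. Of 6 B cell markers 5 fell in the validation set (among them *CD79A*, *CD79B*, *PAX5* and *MS4A1*) and 2 in the experimental set. Of 5 NK cell markers 3 fell in both (*KLRK1*, *PRF1* and *NKG7*), and *NCR1* rose in the validation set. Of 4 monocyte markers *CD14* rose in both, and *CD68*, *CTSS* and *CSF1R* did not pass. Of the 4 genes listed for leukocyte identity, *ITGB2* rose by 1.33 and *SPI1* by 0.84 in the validation set (limma, adjusted p = 0.000234 and 0.0036). *ITGB2* also rose in the experimental set. *PTPRC* and *CORO1A*, with 0.26 and 0.11 in the validation set, did not pass in either set. All 4 were well above background on all 26 arrays. None of the platelet markers tested (*TUBB1*, *GP9*, *GP1BA* and *ITGA2B*) or the muscle markers tested (*MYH7*, *CKM* and *ACTA1*) passed in either set (limma). Of the erythroid markers tested *HBB* rose, by 2.25 in the validation set, and *AHSP* and *ALAS2* did not pass.

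The deviations of *SUCLG2* from the mean of its time correlated with those of the neutrophil list with r of -0.57 and rho of -0.55 over the 20 validation horses, but neither passed over the 14 relations of 7 genes with the T cell and the neutrophil list (permutation, p = 0.0107 and 0.015, adjusted p = 0.15 and 0.189). Without the 2 horses farthest from the median of the neutrophil level r was -0.39, and with scan day and time taken out it was -0.68. For *FH* r was -0.50 and rho -0.12 (permutation, adjusted p = 0.351 and 0.805), and r was -0.19 without the 2 farthest horses but -0.73 with scan day and time taken out. Against the T cell list *SUCLG2* gave r of 0.25 and *FH* 0.34 (permutation, adjusted p = 0.681 and 0.512). These were 0.46 and 0.58 with scan day and time taken out, and -0.01 and -0.36 without the 2 farthest horses. *SUCLG1* against the neutrophil list gave r of 0.39 and rho of 0.50 (permutation, adjusted p = 0.351 and 0.189). Its r was 0.70 without the 2 farthest horses and -0.54 with scan day and time taken out. All values with scan day and time taken out rest on the 13 horses that shared both with another horse. The turn in the sign of *SUCLG1* thus goes with fewer horses as well, and its cause was not tested. The SDH subunits gave r between -0.01 and 0.23 with both lists. The part of the cell mixture in the fall of *SUCLG2* and *FH* was not tested.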

How the data were processed

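Whole-blood mRNA of 23 horses was measured on 26 Agilent arrays of 1 colour, with groups taken from the labels (set, time point and horse). The deposited scanner files hold an intensity per spot, made by the authors with Agilent Feature Extraction 10.7.3.1, which corrected the background without normalizing across arrays. As an alternative, the log2 values of the series table that the authors deposited were used. Control spots and 386 outlier spots were left out, 431 saturated spots, found for validation horse 34 alone, were kept, and log2 intensities were set against the 75th percentile of each array. The brightest probe stood for each of 24415 gene names. The brightest probe had a symbol for 15549 of them, from the array's own gene names, RefSeq, the authors' annotation or the probe description.

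Gene names well above background on at least 3 arrays (experimental set) or 7 (validation set and the difference between the sets) were tested with limma 3.58.1 (statmod 1.5.0) in R 4.3.3, with a threshold of 0.05 on p-values adjusted over all gene names (Benjamini-Hochberg). The experimental set was fitted with the horse as a block, since the labels give each pair of arrays 1 animal. As a check, the 2 arrays of each horse were compared by their deviations from the group means, and r across genes was -0.0082 (horse 2), 0.21 (horse 32) and 0.19 (horse 41). The difference between the sets was fitted over 26 arrays, the horse being a random block (consensus correlation -0.06). Replicates are different horses, and their number limits the precision.

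Permutation tests were made in scipy 1.17.1 and numpy 2.4.6, and correlations were tested over 100000 permutations within the times. The limma fits and the exact permutation test were tested on simulated data. Every gene listed was named, and genes of the lists were named where they passed in the validation set, or, where fewer than 4 passed, the 4 with the largest change. The genes, lists and tests were chosen with earlier results of these data known. Alternatives covered the background correction, normalization, filter, probe choice, scan day, slide, sex, block and single horses. Probe sequences and some genes of the lists are not reported here.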

Additional observations from a re-analysis of the deposited data

Results flagged for a closer look

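Among 28 sets of values over the 7 validation horses at T0, 3 held a horse far from the rest by Dixon's test at the 95% level, where chance alone gives about 1 in 20. Horse 47 had the highest mean level of the neutrophil markers, 5.60 against 4.19 in the next horse, a gap that took up 0.781 of the range. The same horse had the lowest *ACOD1*, 2.29 against 3.16, with a gap of 0.577 of the range. Horse 40 had the lowest mean level of the platelet markers, -2.36 against -1.87, with a gap of 0.591 of the range. None of the 7 tested genes of succinate metabolism, and none of their 6 pairs, had such a horse in this group, although horse 47 was lowest for *SUCLG1*, *SUCLG2*, *SUCLA2* and *FH*. Groups of 3 or 13 horses were not examined in this way.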

How the results depend on the processing

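Of 295 recomputed values of single genes or pairs, 253 kept their direction and their side of the threshold, 28 changed sign, and 4 lost and 10 gained a call. The call of *SUCLG2* and *FH* in the validation set held under all 14 alternatives, with log2 fold changes from -0.68 to -0.36 and from -0.69 to -0.47. Each of these genes was read by 1 probe, so that taking the mean of a gene's probes could not alter its fold change. The filters on dim probes and the fit of all 26 arrays also left both fold changes as they were and bore on the adjusted p alone. In the validation set 2 of 7 genes passed under 12 alternatives and 3 under 2, where *SDHB* joined with scan day as a term and on the days with both times, the latter chosen after seeing the data. In the experimental set 0 of 7 genes passed, but 2 did with the series values, with normexp and quantile normalization together, and in a fit of all 26 arrays, in each case *SUCLG2* and *FH*, and 1 did (*SUCLG2*) where probes had to be well above background on every array. Over all gene names 2222 of 17490 passed with the series values and 2385 of 17490 with normexp and quantile normalization, in place of 1768. The fit of all 26 arrays gave 2931 of 17889, and the stricter filter 2816 of 15472. The pairing left the count of the 7 genes as it was: without the replicate block 0 genes passed, and 1785 of all gene names in place of 1768. Leaving out each experimental horse also left it at 0. The cause of these shifts was not tested.

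Over all gene names, the experimental count was 46 with no filter on dim probes, 2816 with probes above background on every array, 2931 in the fit of all 26 arrays, and 239, 690 and 3169 without horse 2, 32 or 41. It split into 1077 higher and 691 lower, and with quantile normalization into 1008 and 1024. Scan day could not be fitted as a further term there. The count of pairs within an array went from 1 to 0 with the series values, with normexp and quantile normalization together, on the scan days with both times (chosen after seeing the data) and without horse 47, and to 2 without horse 34, a range from 0 to 2.

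Signs turned only for values that passed under no setting. *SUCLG1* was -0.31, -0.37 and -0.30 in the experimental set and -0.16, -0.15 and -0.14 in the validation set with normexp, quantile normalization and the series values, and -0.052 to 0.10 over the experimental horses left out. *SUCLA2* in the validation set was 0.015 with quantile normalization and 0.037 with scan day, and in the experimental set -0.23 to 0.16 with horses left out, where *SDHA* gave -0.63 to 0.22 and *SDHC* -0.80 to 0.35, both above 0 without horse 32. *SUCLG1* minus *SUCLA2* was -0.15 with normexp and -0.13 with the series values. The difference between the sets turned for *SDHB* (0.079, 0.091 and 0.058 with normexp, quantile normalization and the series values), for *SDHA* and *SDHC* with scan day (-0.051 and -0.32), and with horses left out for *SDHA* (-0.54 to 0.31), *SDHB* (-0.23 to 0.088), *SDHC* (-0.39 to 0.76), *SUCLA2* (-0.19 to 0.21) and *FH* (-0.021 to 0.28).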
